A study of Homo sapiens with 10 samples.

Results

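Heat shock proteins are the chaperones that keep other proteins folded. Their genes were followed in HEK293T, an established line of human embryonic kidney origin that expresses SV40 large T antigen, after exposure to bacterial extracellular vesicles (bEVs), the membrane particles that bacteria shed. The genes were chosen by name: every symbol of an HSPA, HSPB, HSPD, HSPE, HSPH, HSP90 or DNAJA, DNAJB or DNAJC gene in the table that pairs probe sets with genes, together with SDF2L1, and without pseudogenes. These names matched 18 of the 14884 genes that have a symbol here. In the RefSeq gene table the same names match 72 protein-coding genes, and 42 of those are DNAJ genes, of which 0 have a symbol in the table used here. The heat shock genes described below are therefore HSP70, small heat shock protein, HSP110 and HSP60 genes with SDF2L1, and the DNAJ genes, the HSP90 genes, HSPA5, HSPA8 and HSPE1 are not analysed here.

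RNA was hybridised to 10 Human Gene 2.0 ST arrays (Affymetrix). In 8 of them the HEK293T cells had been given the bEV of 1 Lactobacillales strain each for 6 h, and the other 2 were control cells, named control 1 and control 2. The strains were L. acidophilus, L. fermentum, L. paracasei, L. plantarum, L. rhamnosus, L. salivarius, Lc. lactis (written Lc. lactics in the labels) and S. thermophilus. Doses were not matched, since each strain's maximum tolerated dose was used, so strain and dose cannot be told apart, and each array is taken to hold RNA pooled over a triplicate, which the methods do not state for the controls. Whether the 2 controls are separate cultures is not stated, so the spread between them may be technical, and p-values reflect these 10 arrays alone. Where the 8 bEVs are compared together with the controls, the spread includes differences between strains and doses. SEs, intervals and p-values of that comparison therefore do not measure the spread of repeated cultures. One protocol label describes another agent (Pk2 at 10 nM), and some titles number the cell line past HEK293T, although the cell line field gives HEK293T for every array.

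The values are log2 signals per probe set, a set of probes against 1 transcript cluster, and 1 unit is a doubling. Array medians lay between 3.29 and 3.33, and the number of arrays limits the precision. Of the markers listed for this cell line, XRCC5, KRT18, VIM and LIN28B had mean log2 signals of 7.54 to 10.3, whereas KRT8 and SOX11 were dim at 4.10 and 3.15. NEFL and NEFM, also listed, have no symbol here. Of 12 markers of blood, endothelium, fibroblast, liver and muscle, 5 have a symbol here, and these had mean log2 signals of 1.83 to 2.68. Among the heat shock genes, 14 of 18 lay at or above 4.63, the median signal of all genes. The 4 dimmer genes were HSPA6, HSPB3, HSPB8 and HSPA12B. Levels of different genes are not compared, since probe sets bind with different strength.

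HSP70 proteins bind exposed hydrophobic stretches of a client protein and release them in a cycle driven by ATP, with J-domain proteins bringing the clients and HSP110 proteins acting as nucleotide exchange factors. Small heat shock proteins hold unfolding proteins without ATP, HSP60 encloses them in a chamber inside mitochondria, and SDF2L1 works in the endoplasmic reticulum (ER) beside the ER HSP70. Heat and other proteotoxic stress raise cytosolic members through the factor HSF1, which binds repeats of GAA and TTC in promoters, whereas ER members answer to the unfolded protein response.

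The promoters were read from RefSeq sequence of build GRCh38.p14, as the 250 bases before the first listed start of each gene, and 16 of the 18 genes matched (HSPA14 and HSPA12B did not). For HSPA2 and HSPA12A the listed start lies inside the gene's full span, so their windows do not precede the whole gene. The letters GAANNTTC, which read the same on both strands and pair a GAA with a TTC, stood in 6 of the 16 promoters, against 1597 of all 27305 promoters (5.85%). The 6 genes were HSPA1A, HSPA1B, HSPA1L, HSPA6, HSPB1 and HSPB8. A match is a description of the letters and not a site of binding. HSPA6 and HSPB1 are shown because they carry the motif and gave the highest and lowest mean differences among the cytosolic genes; capitals mark GAANNTTC, which begins 180 and 69 bases before the start in HSPA6 (chr1:161524290-161524539, plus strand) and 182 bases before it in HSPB1 (chr7:76302423-76302672, plus strand).
HSPA6: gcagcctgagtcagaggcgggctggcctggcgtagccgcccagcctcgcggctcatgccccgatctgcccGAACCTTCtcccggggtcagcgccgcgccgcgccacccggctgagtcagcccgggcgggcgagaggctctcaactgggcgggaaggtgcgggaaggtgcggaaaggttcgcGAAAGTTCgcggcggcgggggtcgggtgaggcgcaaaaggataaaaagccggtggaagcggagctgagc
HSPB1: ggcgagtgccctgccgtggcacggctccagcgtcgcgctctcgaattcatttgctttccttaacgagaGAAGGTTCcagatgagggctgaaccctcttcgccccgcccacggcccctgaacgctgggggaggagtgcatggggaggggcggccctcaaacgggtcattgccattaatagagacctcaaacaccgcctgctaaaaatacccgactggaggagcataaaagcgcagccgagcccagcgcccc

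SDF2L1 is shown as the lowest gene of all 18 and the lone ER member. The ER stress response element was searched on both strands in a single form, CCAAT and CCACG with 9 bases of any kind between them. This form stood in 0 of the 16 promoters and in 22 of all 27305 (0.0806%). Other spacings and other relative orientations of CCAAT and CCACG were not searched, so other forms of the element may be present. Capitals mark CCAAT or its reverse complement, letters chosen after the sequence was seen, which stand 4 times in SDF2L1 (chr22:21642052-21642301, plus strand), 207, 182, 62 and 28 bases before the start. At least 1 CCAAT stood in 33.0% of all promoters and at least 4 in 0.930%. Just before the CCAAT at 182 bases stand the letters cgtgg, the reverse complement of CCACG. Both their spacing and their orientation relative to CCAAT differ from the searched form, so the search could not find this pair.
SDF2L1: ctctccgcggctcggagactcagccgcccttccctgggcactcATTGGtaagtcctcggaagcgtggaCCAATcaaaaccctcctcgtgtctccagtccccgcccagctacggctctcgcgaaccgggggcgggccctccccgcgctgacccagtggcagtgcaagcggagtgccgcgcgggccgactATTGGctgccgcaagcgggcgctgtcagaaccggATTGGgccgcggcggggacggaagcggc

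HSPA1A and HSPA1B encode the same stress-inducible cytosolic HSP70 from neighbouring copies on chromosome 6, and the stretch of each promoter around its GAANNTTC (capitals) shows how alike the copies are. HSPA1A is given at chr6:31815423-31815482 and HSPA1B at chr6:31827618-31827677, both on the plus strand. HSPA1L starts the other way from next to HSPA1A, and their promoter windows overlap.
HSPA1A: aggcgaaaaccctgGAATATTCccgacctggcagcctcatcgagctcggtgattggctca
HSPA1B: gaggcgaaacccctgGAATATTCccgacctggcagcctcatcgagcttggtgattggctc

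Over the 8 bEVs together, the heat shock genes showed no common direction. The mean of the 8 bEV arrays lay above the mean of the controls for 9 genes and below it for 9, and the median difference over the 18 genes was 0.00 on the log2 scale (-0.00012), beside 0.00 over all 14884 genes (0.0010). With limma over all genes and Benjamini-Hochberg adjustment, 0 of 18 genes passed an adjusted p of 0.05, as did 0.0% of all genes. At an unadjusted limma p under 0.05, 1 heat shock gene was higher in the bEV arrays (HSPA6), where 5.92% of all genes were higher, and 3 were lower (SDF2L1, HSPB1 and HSPB3), where 5.38% of all genes were lower. All 8 bEV arrays lay above both controls for 2 genes (HSPA6 and HSPD1), against 5.11% of all genes, and below both controls for 3 (SDF2L1, HSPB1 and HSPB3), against 4.07% of all genes. HSPB3 is counted here although its signal is not shown to be above background. Without control 1, HSPB3 was the 1 gene lower and 0 were higher at an unadjusted p under 0.05, and without control 2, 0 were lower and HSPA6 and HSPBAP1 were higher.

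**Figure D1:**
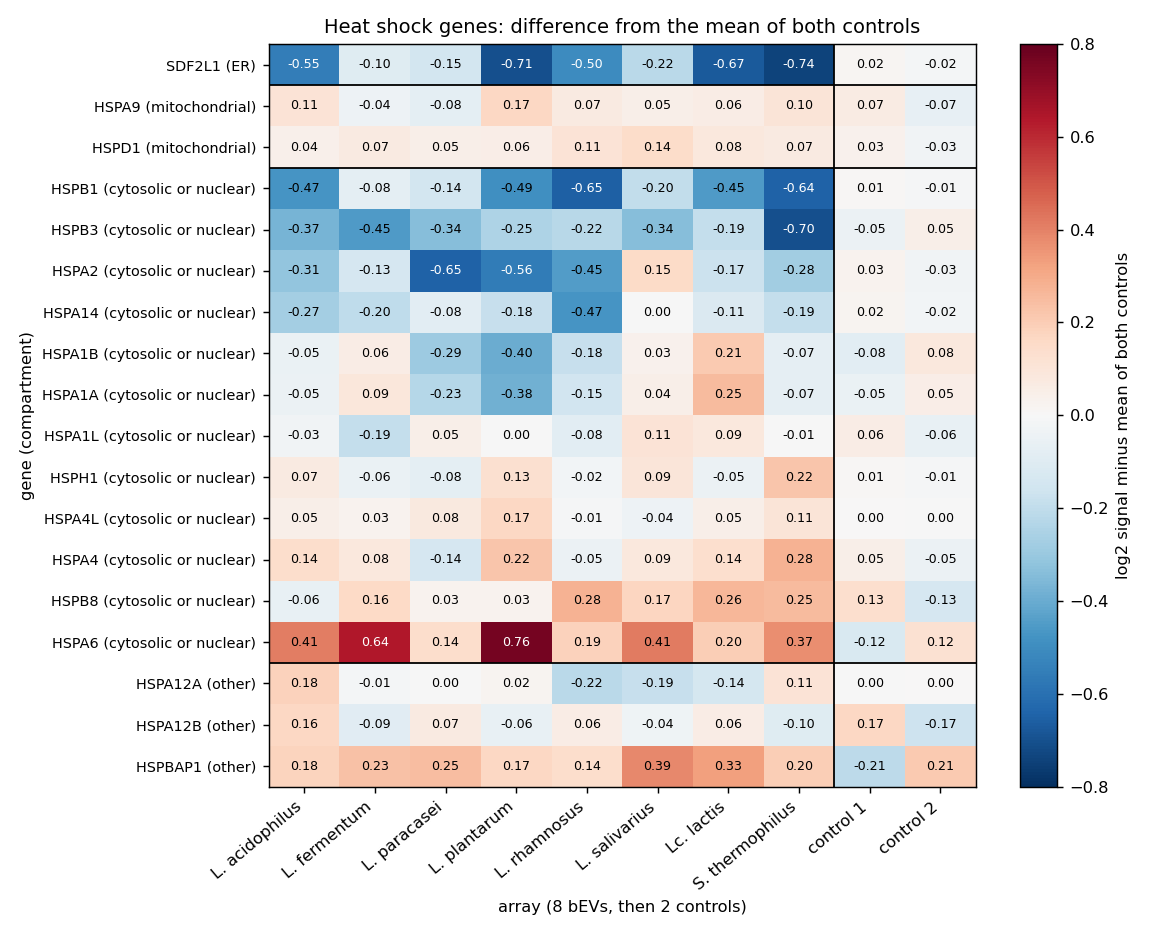
log2 signal of each heat shock gene (rows, with its compartment) minus the mean of both controls, in the 8 bEV arrays and then the 2 control arrays (columns); red is higher and blue lower. SDF2L1 and HSPB1 are below the controls in every bEV array, and the rows of HSPA9 and HSPD1 stay near 0.

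The ER gene had the lowest difference. SDF2L1 encodes a soluble ER protein that acts with the J-domain proteins of the ER lumen. Its log2 signal was 7.12 with the bEV of L. acidophilus, 7.57 with L. fermentum, 7.52 with L. paracasei, 6.96 with L. plantarum, 7.17 with L. rhamnosus, 7.45 with L. salivarius, 7.0 with Lc. lactis and 6.93 with S. thermophilus, against 7.69 in control 1 and 7.65 in control 2. Every bEV array lay below both controls, with L. fermentum, L. paracasei and L. salivarius closest to them. The mean difference was -0.45 on the log2 scale (SE 0.17, 95% interval -0.83 to -0.08), which is 73.0% of the control level. Its unadjusted limma p was 0.0204 and its adjusted p 0.369, so the difference did not pass the test over all genes. Against the mean of both controls, S. thermophilus had -0.74, L. plantarum -0.71 and Lc. lactis -0.67, all past 1.5-fold (0.58 on the log2 scale), while L. fermentum had -0.10. The SD over the 8 bEV arrays was 0.26, beside a gap of 0.03 between the controls.

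HSPB1 (HSP27), a small heat shock protein that binds unfolding proteins and actin, differed between strains in much the same way. Its log2 signal was 6.77 with L. acidophilus, 7.17 with L. fermentum, 7.10 with L. paracasei, 6.75 with L. plantarum, 6.59 with L. rhamnosus, 7.05 with L. salivarius, 6.79 with Lc. lactis and 6.60 with S. thermophilus, against 7.26 in control 1 and 7.23 in control 2. Again every bEV array lay below both controls, and L. fermentum, L. paracasei and L. salivarius were the 3 highest bEV arrays, as for SDF2L1. The mean difference was -0.39 (SE 0.15, 95% interval -0.72 to -0.06), or 76.3% of the control level, with an adjusted p of 0.381 in limma. L. rhamnosus at -0.65 and S. thermophilus at -0.64 passed 1.5-fold. HSPB1 carries the heat shock motif printed above, and so does HSPA6, whose difference had the other sign. Any part of the motif in these differences was not tested.

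Short genes as a class had negative differences, and SDF2L1 and HSPB1 are short. Protein-coding genes at or above the median signal were put in 5 bins by genomic span, a view chosen after the data were seen. The median difference was -0.08 in the shortest bin (1388 genes of 270 to 9931 bases) and 0.09 in the longest, whereas control 1 minus control 2 had medians of 0.02 and 0.04 in these bins. Per bEV the shortest bin had medians between -0.15 (L. plantarum) and 0.00 (L. salivarius, -0.0026), and L. salivarius, L. paracasei and L. fermentum were the 3 strains closest to 0. The heat shock genes in that bin were SDF2L1 (1998 bases), HSPB1 (1620), HSPA1A (2400), HSPA1B (2517), HSPA1L (5665) and HSPA2 (7333). SDF2L1 lay 0.37 below the bin's median, with 32 of 1388 genes (2.31%) lower still, and HSPB1 lay 0.31 below it, with 63 genes (4.54%) lower. Both were singled out for the lowest mean differences among the heat shock genes, so low places in the bin follow from that choice. HSPA1A, of similar span, lay 0.02 above the median. The part of gene length in these results was not tested.

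**Figure D2:**
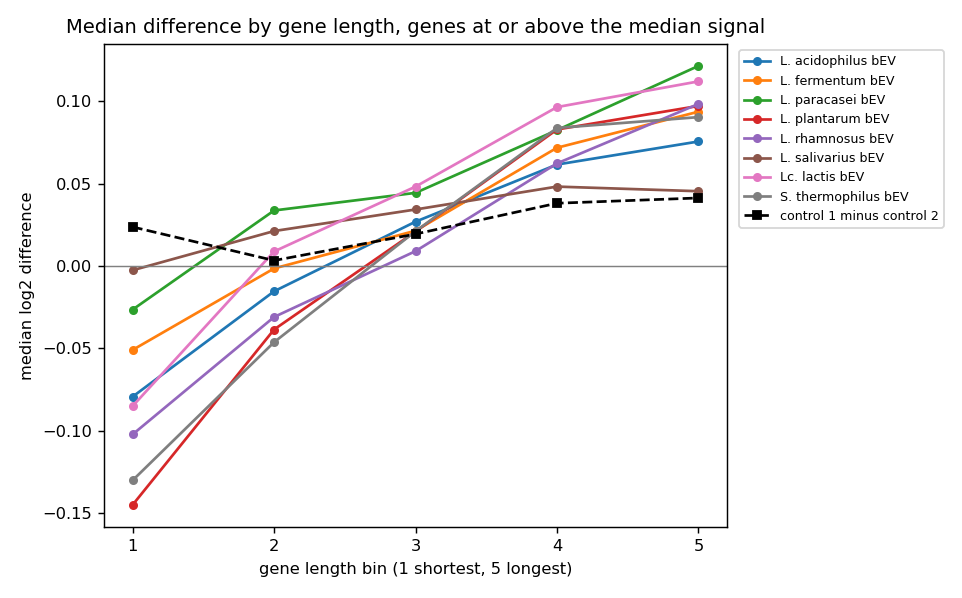
Median log2 difference from the mean of both controls (vertical axis) in 5 bins of gene length from shortest to longest (horizontal axis), with 1 line per bEV and a dashed line for control 1 minus control 2. All 8 bEV lines are lower in bin 1 than in bin 5, and L. salivarius is the flattest of them.

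The cytosolic and nuclear HSP70 genes pointed both ways. HSPA6 (HSP70B'), a strictly stress-inducible HSP70, had the highest mean difference. Its log2 signal was 3.85 with L. acidophilus, 4.08 with L. fermentum, 3.58 with L. paracasei, 4.20 with L. plantarum, 3.62 with L. rhamnosus, 3.85 with L. salivarius, 3.63 with Lc. lactis and 3.81 with S. thermophilus, against 3.31 in control 1 and 3.56 in control 2. All 8 bEV arrays lay above both controls, although L. paracasei exceeded control 2 by little. The mean difference was 0.39 (SE 0.16, 95% interval 0.05 to 0.73), a fold of 1.31, with an unadjusted limma p of 0.0271 and an adjusted p of 0.382. L. plantarum (0.76) and L. fermentum (0.64) passed 1.5-fold. The probe set is dim, at percentile 37.3 of mean signal, and the near-identical pseudogene HSPA7 had a mean difference of -0.22 (limma adjusted p = 0.747), so the split of signal between these 2 loci is uncertain.

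HSPA1A and HSPA1B, the major heat-inducible HSP70 genes, did not follow HSPA6. HSPA1A had log2 signals of 11.7 (L. plantarum) to 12.4 (Lc. lactis) with a median of 12.1 in the bEV arrays, against 12.1 and 12.2 in the controls, so the groups overlap. Its mean difference was -0.06 (95% interval -0.37 to 0.24, limma adjusted p = 0.910). By strain, HSPA1A ran between -0.38 with L. plantarum and 0.25 with Lc. lactis. HSPA1B had a mean difference of -0.09 (95% interval -0.39 to 0.22, limma adjusted p = 0.865), with -0.40 and 0.21 in the same 2 strains. Each of these genes has 5 probe sets, and probes cannot fully separate copies this alike, so they are not independent measurements. L. plantarum thus gave the highest HSPA6 value and the lowest HSPA1A value of the 8 bEVs.

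HSPA2, an HSP70 best known from germ cells, had log2 signals of 6.05 with L. acidophilus, 6.22 with L. fermentum, 5.71 with L. paracasei, 5.80 with L. plantarum, 5.91 with L. rhamnosus, 6.51 with L. salivarius, 6.19 with Lc. lactis and 6.08 with S. thermophilus, against 6.39 and 6.33 in the controls. L. salivarius alone lay above both controls, and the other 7 bEVs lay below both. The mean difference was -0.30 (SE 0.17, 95% interval -0.67 to 0.07, limma adjusted p = 0.528), and L. paracasei at -0.65 was the 1 bEV past 1.5-fold. HSPA14, an HSP70-like protein of a ribosome-associated complex, had bEV signals of 6.95 (L. rhamnosus) to 7.42 (L. salivarius) with a median of 7.24, against 7.45 and 7.41 in the controls. For HSPA14, too, 7 bEVs lay below both controls and L. salivarius lay between them, with a mean difference of -0.19 (95% interval -0.44 to 0.06, limma adjusted p = 0.566). HSPA1L, a testis-enriched relative of HSPA1A, had a mean difference of -0.01 in its brightest probe set (limma adjusted p = 0.988) and of -0.11 to -0.14 in the other 4.

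The nucleotide exchange factors of the HSP110 family stayed close to the controls. HSPH1 (HSP105) had bEV signals of 9.90 (L. paracasei) to 10.2 (S. thermophilus) with a median of 10.00, against 9.98 and 9.97 in the controls. Its mean difference was 0.04 (95% interval -0.18 to 0.26, limma adjusted p = 0.925). HSPA4 (APG-2) had a mean difference of 0.09 (95% interval -0.15 to 0.34, limma adjusted p = 0.796), and HSPA4L (APG-1) had 0.05 (limma adjusted p = 0.873). S. thermophilus had the highest HSPA4 and HSPH1 values of the 8 bEVs, at 0.28 and 0.22 above the mean of both controls, and L. paracasei the lowest, at -0.14 and -0.08. For all 3 genes the interval lay within 1.5-fold in either direction. As these intervals do not measure the spread of repeated cultures, they do not exclude a difference of that size.

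Besides HSPB1, the small heat shock genes HSPB3 and HSPB8 were dim. HSPB3, a muscle-type member, lay at percentile 6.44 of mean signal. Its mean signal lay in the range of the markers of other cell types (1.83 to 2.68), so it is not shown to be above background and its values are given with that limit. Its bEV arrays had log2 signals of 1.61 (S. thermophilus) to 2.12 (Lc. lactis) with a median of 1.97, against 2.27 and 2.36 in the controls. All 8 lay below both controls, with a mean difference of -0.36 (SE 0.13, 95% interval -0.63 to -0.09) and an adjusted p of 0.353 in limma, the lowest among the 18 genes. HSPB8, which works with the co-chaperone BAG3 in selective autophagy, had a mean difference of 0.14 (95% interval -0.11 to 0.39, limma adjusted p = 0.686), and its arrays overlapped the controls. Of 10 listed crystallin and small heat shock genes, 4 were measured, these 3 and ODF1, a sperm tail protein, at -0.16 (limma adjusted p = 0.726).

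Both mitochondrial genes lay close to the controls, and HSPD1 varied least of the 18 genes over the bEV arrays. HSPD1 (HSP60), the chaperonin of the mitochondrial matrix, had log2 signals of 8.61 with L. acidophilus, 8.64 with L. fermentum, 8.61 with L. paracasei, 8.62 with L. plantarum, 8.68 with L. rhamnosus, 8.71 with L. salivarius, 8.65 with Lc. lactis and 8.64 with S. thermophilus, against 8.60 and 8.54 in the controls. All 8 lay above both controls by a small margin, with an SD of 0.035. The mean difference was 0.08 (95% interval -0.10 to 0.26, limma adjusted p = 0.769). HSPA9 (mortalin), the HSP70 that pulls proteins into the matrix, had bEV signals of 11.0 to 11.3 with a median of 11.2, against 11.2 and 11.0 in the controls, and a mean difference of 0.05 (95% interval -0.15 to 0.26, limma adjusted p = 0.879).

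**Figure D3:**
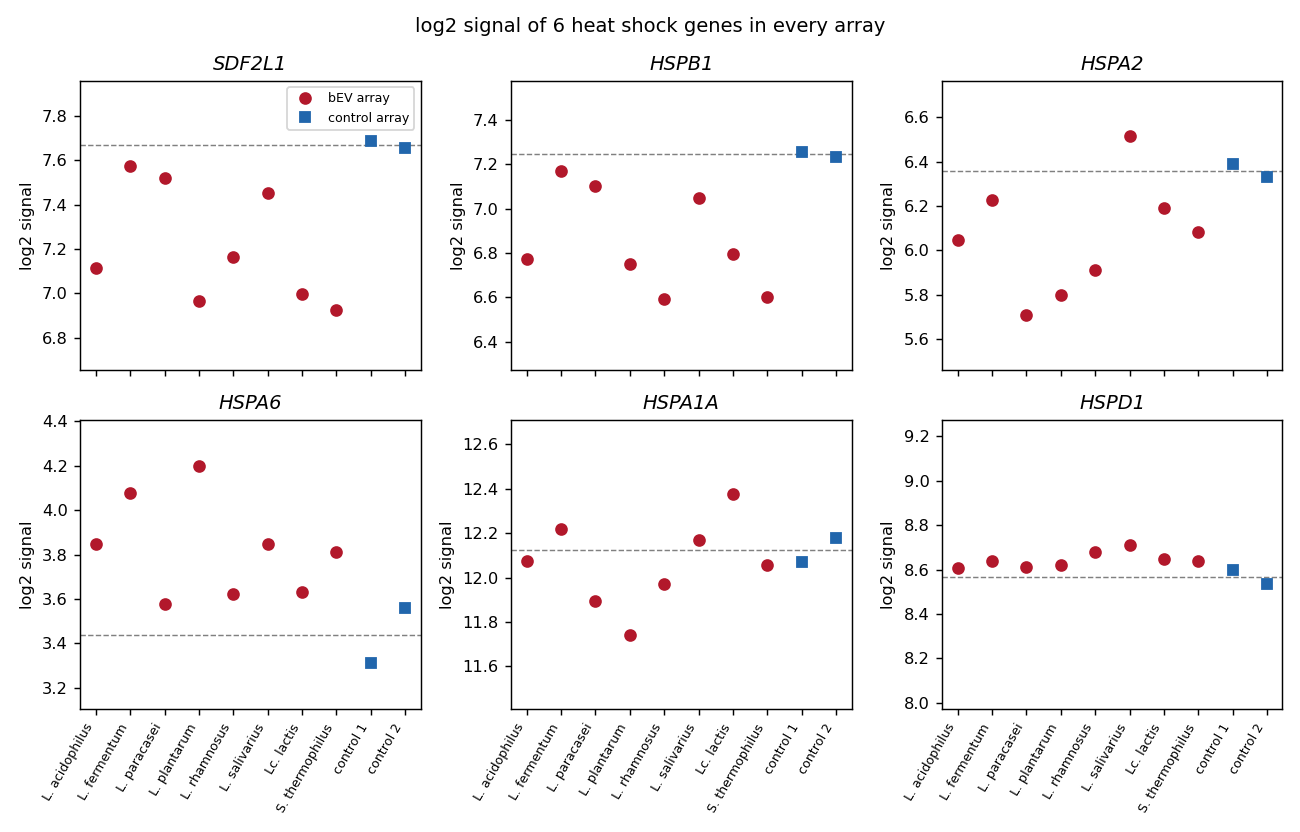
log2 signal (vertical axis, the same span of 1.3 units in each panel) of 6 heat shock genes in the 8 bEV arrays (red circles) and the 2 control arrays (blue squares), with the mean of both controls as a dashed line. SDF2L1 and HSPB1 have the same 3 strains nearest to the controls, HSPA6 lies above the controls throughout, and HSPD1 hardly varies.

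Of the remaining genes, HSPBAP1 encodes a protein that binds HSPB1 and is no chaperone itself. It lay above the mean of both controls in all 8 bEV arrays (5.78 to 6.03, median 5.86), against 5.43 in control 1 and 5.85 in control 2. The mean difference was 0.23 (SE 0.11, 95% interval -0.01 to 0.48, limma adjusted p = 0.464). The gap of 0.42 between its controls was the widest of the 18 genes, and the difference was 0.44 against control 1 and 0.03 against control 2. HSPA12A and HSPA12B, distant relatives of HSP70, had mean differences of -0.03 and 0.01 (limma adjusted p = 0.952 and 0.989), and their arrays overlapped the controls.

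By compartment, the 12 cytosolic or nuclear genes had a median difference of -0.04, with 5 positive and 7 negative and a range of -0.39 to 0.39. The 2 mitochondrial genes had a median of 0.07, both positive, and the 1 ER gene had -0.45. The 3 genes of other or unsure place had a median of 0.01. The median over all genes was 0.00 (0.0010). The signs of the mitochondrial and ER genes thus differed, but with 2 genes and 1 gene this is a comparison of HSPD1 and HSPA9 with SDF2L1 and not of compartments, and it was not tested.

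**Figure D4:**
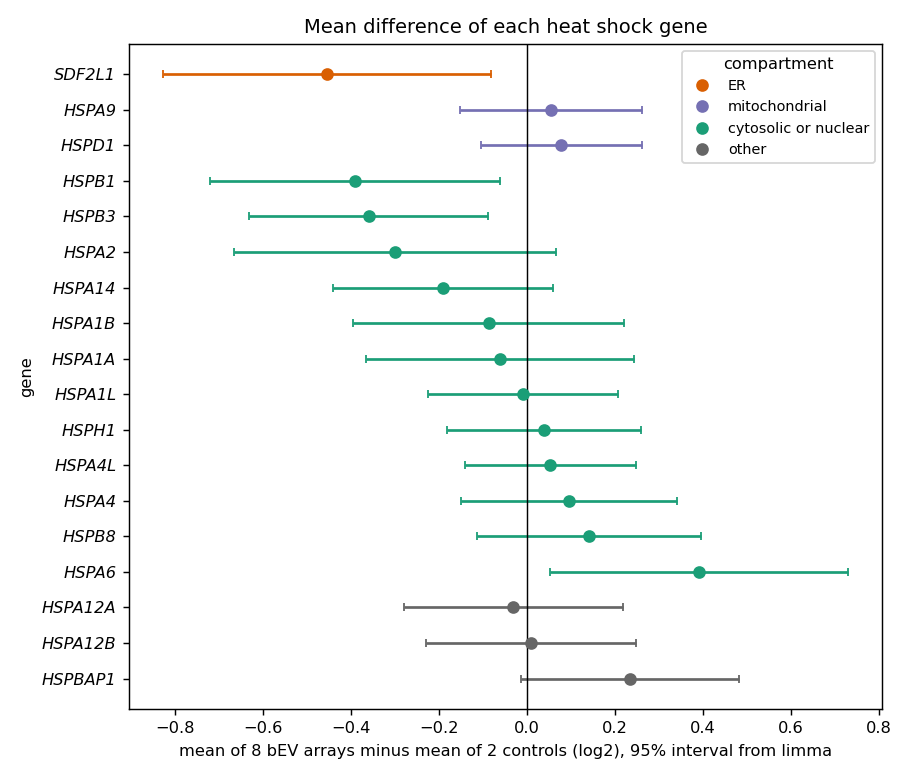
Mean of the 8 bEV arrays minus the mean of the 2 controls (log2, horizontal axis) for each heat shock gene (vertical axis), with its 95% interval from limma and coloured by compartment. The intervals of SDF2L1, HSPB1 and HSPB3 lie below 0 and that of HSPA6 lies above it, all without adjustment, and the other 14 intervals include 0.

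Between 0 and 3 of the 18 heat shock genes passed 1.5-fold in each bEV. At 1.5-fold against the mean of both controls, the counts were 3 of 18 with S. thermophilus (HSPB1, HSPB3 and SDF2L1, all lower), beside 3.77% of all genes, and 2 with L. plantarum (HSPA6 higher, SDF2L1 lower), beside 5.15%. There was 1 gene with L. fermentum (HSPA6, higher), beside 3.46%, 1 with L. paracasei (HSPA2, lower), beside 4.66%, 1 with L. rhamnosus (HSPB1, lower), beside 4.64%, and 1 with Lc. lactis (SDF2L1, lower), beside 3.49%. There were 0 with L. acidophilus, beside 3.56%, and 0 with L. salivarius, beside 2.94%. Control 1 against control 2 passed 1.5-fold for 0 heat shock genes, beside 5.44% of all genes. With limma on each bEV alone, which has 1 residual degree of freedom, 0 heat shock genes passed an adjusted p of 0.05 in any bEV, as did 0.0% of all genes. At an unadjusted p under 0.05 in the same limma fits there were 4 with L. plantarum, beside 8.79% of all genes, 3 with L. rhamnosus, beside 7.84%, and 3 with S. thermophilus, beside 6.62%. There were 2 with L. acidophilus, beside 5.66%, 1 with L. fermentum, beside 5.78%, 1 with L. paracasei, beside 7.54%, 1 with Lc. lactis, beside 5.79%, and 0 with L. salivarius, beside 4.81%. The 8 comparisons share their controls.

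Within most bEVs, SDF2L1 was the lowest heat shock gene at or above the median signal. This held for L. acidophilus, L. plantarum, L. salivarius, Lc. lactis and S. thermophilus, while HSPB1 was lowest with L. rhamnosus, HSPA2 with L. paracasei and HSPA14 with L. fermentum (-0.20). The highest such gene was HSPBAP1 in 5 bEVs, HSPA4 with L. plantarum (0.22) and S. thermophilus (0.28), and HSPA12A with L. acidophilus (0.18). The median over the 18 genes stayed between -0.08 (L. paracasei) and 0.06 (Lc. lactis). The SD over the bEV arrays had a median of 0.14 in the heat shock genes, beside 0.17 for all genes, and 6 of the 18 lay above that value: SDF2L1, HSPA2, HSPB1, HSPA6, HSPA1A and HSPA1B, at 0.20 to 0.26.

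The regulators around these genes were read from lists by name. Of 30 listed HSF1 targets, 15 were measured, 9 of them heat shock genes already described, with 7 positive and 8 negative and a median of -0.06. The targets named for the widest differences besides HSPB1 and HSPA6 were MRPL18 at -0.35 (limma adjusted p = 0.341) and the polyubiquitin gene UBB at -0.21. MRPL18 is a mitochondrial ribosomal protein whose shortened form enters cytosolic ribosomes in heat stress. Both MRPL18 and UBB are in the shortest length bin (median -0.08), and the part of gene length was not tested. Of 6 listed heat shock factors and their partners, 5 were measured, with 3 positive and 2 negative. HSF1 itself, the main heat shock factor, had 0.05 (limma adjusted p = 0.943). HSBP1, a small protein that binds HSF1, had -0.36 (limma adjusted p = 0.341) with all 8 bEV arrays below both controls, and is in length bin 2 (median -0.01).

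Of 40 listed ER stress genes, 26 were measured, with 15 positive, 11 negative and a median of 0.04. At an unadjusted limma p under 0.05, 6 were higher (SESN2, CDNF, EIF2AK3, CREB3L2, ATF6 and ERN1), where 5.92% of all genes were higher. Of the 26, 0 were lower, where 5.38% of all genes were lower, and 0 passed after adjustment. The list was chosen with earlier results of these data known. The widest were SESN2, a stress-induced inhibitor of mTORC1, at 0.81 (limma adjusted p = 0.351), the secreted ER factor CDNF at 0.48 (0.351), the ER kinase EIF2AK3 (PERK) at 0.43 (0.341) and the transcription factor XBP1 at 0.37 (0.454). The ER sensor ATF6 had 0.24 (limma adjusted p = 0.423) and ERN1 (IRE1) 0.29 (0.401). By gene length, EIF2AK3 and ERN1 are in bin 4 of 5 and ATF6 and CREB3L2 in bin 5, whose medians were 0.07 and 0.09, whereas SESN2 is in bin 3 (median 0.02), XBP1 in bin 1 (median -0.08) and CDNF is too dim for a bin. All of these genes that are in a bin lay above the median of their bin. They were named for their positive differences, so this follows from how they were picked and says nothing on gene length. Their rank within the bin was not computed. The part of gene length was not tested here either. The lowest of the 26 were SEC61B, a subunit of the translocation channel, at -0.21, DERL2, a protein of ER-associated degradation, at -0.21, and SERP1, a stress-associated ER protein, at -0.20, each below the mean of both controls in all 8 bEVs (limma adjusted p = 0.523, 0.628 and 0.556). SEC61B and SERP1 are, like SDF2L1, in the shortest length bin. Among the folding factors of the list, HYOU1 had 0.04, CALR -0.06, CANX 0.07, MANF -0.06, CRELD2 -0.03, ERO1A 0.01, ERO1B 0.11 and SDF2, the paralogue of SDF2L1, -0.07. Genes of this list beyond the widest 4 were named after their values were seen.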

How the data were processed

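Values deposited by the authors are log2 signals for 53617 probe sets on 10 arrays. The labels name MAS5 and the methods GeneChip Command Console Software, and how arrays were normalized was not given in the sources used here. Upper quartiles lay between 5.24 and 5.36, so no further normalization was applied. Symbols came from a probe table, updated by Entrez ID, for 16098 probe sets, and 37519 are unnamed here. Per gene, the probe set with the highest mean was used. The pseudogene HSPA7 was left out.

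The 8 bEV arrays were compared with the 2 controls by limma 3.58.1 in R 4.3.3 (8 residual degrees of freedom, prior 5.14) with Benjamini-Hochberg adjustment over 14884 genes, and each bEV by its difference from the mean of both controls, called at 1.5-fold, and by limma (prior 5.10). The limma steps were tested on simulated data. Compartments and lists were written from textbook knowledge. Members and lists were chosen with earlier results of these data known.

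Named genes are core members, those where every bEV array fell on a single side of both controls, the 5 widest in each direction and each bEV's highest and lowest at or above the median signal, those with the lowest p, and up to 4 per list. The text adds the others to account for all 18. Alternatives were each array left out, quantile normalization, centred arrays, bright genes, the mean of probe sets, limma with trend and robust variance, 2-fold, and 1.5-fold against each control.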

Additional observations from a re-analysis of the deposited data

How the results depend on the processing

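The adjusted count stayed at 0 under every alternative to the comparison of 8 bEVs with the controls (0 of 14 genes with dim genes left out). SDF2L1 and HSPB1 kept their direction in all of these, and HSPB3 and HSPA6 in all except the one with dim genes left out, which drops them, with mean differences of -0.51 to -0.41, -0.44 to -0.35, -0.41 to -0.31 and 0.27 to 0.51. Their lowest limma adjusted p under any alternative were 0.189, 0.194, 0.289 and 0.358. Leaving out an array could not turn the direction of these 4 genes, since all their bEV arrays lay on the same side of both controls. Limma with trend and robust variance could not turn it either, and nor could leaving out dim genes, since both leave the mean difference unchanged. The same holds for the mean of probe sets, since each of these 4 genes has 1 probe set. Quantile normalization and centred arrays alone could have turned the direction. The unadjusted calls rest on having both controls. Leaving out arrays in turn gave 0 to 2 genes higher (2 without control 2) and 0 to 4 lower (4 without L. salivarius, where HSPA2 joined), with HSPB3 the 1 lower gene without control 1 and 0 lower without control 2, and HSPA6 not past the threshold without control 1. The count of genes with every bEV above both controls ran between 2 and 4 (4 without control 1), that below both between 3 and 5 (5 without L. salivarius or without control 2), and the mitochondrial median between 0.017 without control 2 and 0.12 without control 1. Leaving out an array could only keep or raise the counts of genes above or below both controls. With dim genes left out, 1 gene lay above both controls in every bEV. At 2-fold in place of 1.5-fold, the 9 calls summed over bEVs became 0. Of 266 single-gene values under alternatives, 258 kept their direction and side of the threshold and 8 turned, all of genes near 0: HSPA1L (0.00013 with centred arrays, -0.069 to 0.051 with arrays left out), HSPA12B (-0.16 to 0.18) and HSPA9 (-0.014 to 0.12). The cause was not tested. The planned correlations of partner chaperones were not run, since 1 partner of each of the 5 pairs has no symbol here. Each bEV has 1 array, at its own dose, and 4 of the 18 genes are dim.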

Other observations

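Other chaperone machines gave few single-gene differences. Of 22 listed chaperonin and prefoldin genes, 13 were measured, with 2 positive, 11 negative and a median of -0.10. The lowest were TBCA, a tubulin folding cofactor, and PFDN6, a prefoldin subunit, both at -0.34. PFDN6 alone was lower at an unadjusted limma p under 0.05, where 5.38% of all genes were lower. Of the 12 genes of this list in a gene length bin, 8 were in the 2 shortest bins, and the part of gene length was not tested. Of 30 listed co-chaperones, 20 were measured, with 8 positive and 12 negative and a median of -0.02. At an unadjusted limma p under 0.05, 0 were higher, beside 5.92% of all genes, and 0 lower, beside 5.38%. BAG3, the partner of HSPB8, had 0.16 and lay above the mean of both controls in all 8 bEVs (limma adjusted p = 0.629).

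Of 30 listed genes of mitochondrial protein quality control, 23 were measured, with 11 positive, 12 negative and a median of -0.01. The import subunits TIMM17A and TOMM22 had -0.35 and -0.32. At an unadjusted limma p under 0.05 these and TIMM50 were lower, beside 5.38% of all genes, and the protease PITRM1 was higher, beside 5.92%. By gene length, TOMM22 is in bin 1 (median -0.08), TIMM17A and TIMM50 in bin 2 (median -0.01) and PITRM1 in bin 3 (median 0.02). The part of gene length was not tested. None of the genes of these 3 lists passed after Benjamini-Hochberg adjustment.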
